A study of Mus musculus with 9 samples.

Results

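The hypoxia-inducible factor (HIF) pathway was read here through 7 genes, namely the subunits Hif1a, Epas1 and Arnt, the oxygen-dependent regulators Vhl, Egln1 and Egln3, and the target gene Bnip3. They were chosen by gene symbol, and every probe set was taken whose platform annotation gives exactly 1 symbol that is among these. That gave 21 probe sets (design A held 8, design B held 10 and design C held 3) of 29131 with 1 symbol and 36701 in all, and 7 of 15964 named genes. No probe set that names several genes included a member. Signal came from 9 Affymetrix MG-U74v2 oligonucleotide arrays, with 3 replicates of each of 3 designs that carry different probe sets.

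All 9 arrays carried RNA of a single group. It consisted of sorted GFP-positive retinal cells of homozygous Tie2-GFP mice at postnatal day 8, after intraperitoneal injection of APB5, an antibody that neutralizes the receptor PDGFRb, from day 0 to day 7. PDGFRb signalling recruits pericytes to capillaries, and the series is described as retinas without pericyte coverage. The Tie2 promoter that drives GFP is active in endothelium and also in some blood cells. Retinas were pooled and dissociated enzymatically in steps of 60 min at 37 °C before sorting. No arrays of untreated animals are analysed here, so no effect of the antibody on any HIF gene can be given, and every value below is a level in antibody-treated animals. The labels do not say whether replicates came from separate pools, so the spread between replicates may be technical. Whether a replicate number stands for the same RNA on different designs is not known here either.

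HIF is a dimer of an oxygen-regulated alpha subunit, encoded by Hif1a or Epas1 (HIF-2 alpha), and the constitutive beta subunit encoded by Arnt. With oxygen present, the prolyl hydroxylases encoded by the Egln genes modify the alpha subunit, the ubiquitin ligase subunit encoded by Vhl binds it, and it is degraded. In low oxygen the alpha subunit persists, enters the nucleus and switches on genes of glycolysis, blood vessel growth and mitochondrial turnover. The retina is a tissue in which this system drives vessel growth into areas short of oxygen, and Epas1 is known for its strong expression in endothelium. Because the alpha subunits are controlled mainly as proteins, arrays, which measure transcripts, do not read the activity of the pathway.

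Values are the deposited linear intensities, in arbitrary units. Each probe set was ranked within its array, with 0 for the lowest signal and 100 for the highest, and its position is this percentile as the mean ± SD over 3 replicates. Probe sets differ in how well they hybridise, so a position reflects the probes as well as the transcript. The order of probe sets is an order of positions and not of transcript amounts. The cells were measured in bulk, where the share of cells that express a gene and the amount of RNA per cell cannot be told apart. A probe set counted as above the floor when it exceeded the 40th percentile of its array on all 3 replicates.

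The sorted cells carried endothelial signal. Of 13 measured pan-endothelial genes, 11 exceeded the 90th percentile of probe sets for genes of unrelated tissues (liver, pancreas, testis and others) on all 3 arrays of a design, against 2 of 10 mural genes, 1 of 10 macrophage and microglial genes, 1 of 3 erythroid genes, 2 of 6 glial genes and 3 of 8 neuronal and photoreceptor genes. The same threshold was passed by 52.4% of all named genes and by 6 of the 30 genes of unrelated tissues themselves, a share equal to that of the mural genes. This threshold rests on 35 probe sets on design A, 11 on design C and only 2 on design B. It was an intensity of 63.3 to 69.4 on design A and 93.6 to 111.9 on design C. On design B it was 32.6 to 34.3, near the 40th percentile. Both mural genes that exceeded it, Cspg4 and Abcc9, had their strongest probe set on design B, so these counts depend on the design. The endothelial cadherin Cdh5 read 1032, 1576 and 1439 in the 3 replicates, and Pdgfrb, a pericyte gene and the antibody's target, read 34.4, 25.5 and 40.7. By strongest probe set, Pdgfrb stood lowest of the 10 mural genes (38.8 ± 9.1) and Rgs5 highest (63.1 ± 3.5). The pan-endothelial genes that did not exceed the threshold were Pecam1 (52.4 ± 2.5) and Egfl7 (43.0 ± 1.9). The macrophage receptor Csf1r stood at position 87.2 ± 7.2 on 1 probe set and 38.4 ± 2.3 on another, the globin gene Hba-a1 at 75.1 ± 1.3, and the glial enzyme Glul between 3.48 and 81.5 over 4 probe sets. The highest sets of Csf1r and Glul end in _r_at, a mark of sets that do not meet all probe selection rules. The part of other cell types in the HIF gene signals was not tested. Between replicates, r across the log2 signals of all probe sets was 0.981 to 0.987. The floor was an intensity of 33.5 to 35.1 on the arrays of designs A and B, and of 25.3 to 25.4 on those of design C. With at least 1 probe set, it was exceeded by 15 of the 30 genes of unrelated tissues and 8 of the 10 mural genes. All 13 pan-endothelial genes and 72.4% of all named genes exceeded it too. A place above the floor therefore does not show expression.

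The HIF genes lay at both ends of the arrays. Transcripts of Hif1a, Epas1, Arnt and Vhl each gave a probe set within the top 2 percentiles of its array (for Hif1a and Vhl one that is not plain). By strongest probe set, Egln1 lay somewhat lower and Egln3 in the upper middle, while all probe sets of Bnip3 lay near the bottom. At least 1 probe set exceeded the floor for 6 of the 7 genes, all but Bnip3, beside 84.7% of the 7130 named genes that have 2 to 4 probe sets as these genes do, and 72.4% of all named genes. Of the 21 probe sets, 11 exceeded the floor, beside 56.5% of all probe sets, and so the share over the floor was close to that of the arrays as a whole. At the 60th percentile the count was again 6 of 7 genes, beside 67.0% of genes with 2 to 4 probe sets. At the 75th it was 5 of 7, beside 47.5%, and at the threshold from genes of unrelated tissues 5 of 7, beside 65.4%. At the upper end, 5 of 21 probe sets stood at percentile 98 or more on all 3 replicates, beside 1.66% of all probe sets. They belonged to 4 genes of the 7, beside 5.23% of named genes with 2 to 4 probe sets that reach a mean position of 98, and the 2 of Hif1a are not independent, since they read the same transcript. The cuts at percentiles 98 and 10 and at a span of 50 points were set with earlier results of these data known. Shares given beside these cuts are therefore descriptive only. The median position was 67.3 for the 21 probe sets and 52.1 for all named probe sets.

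**Figure D1:**
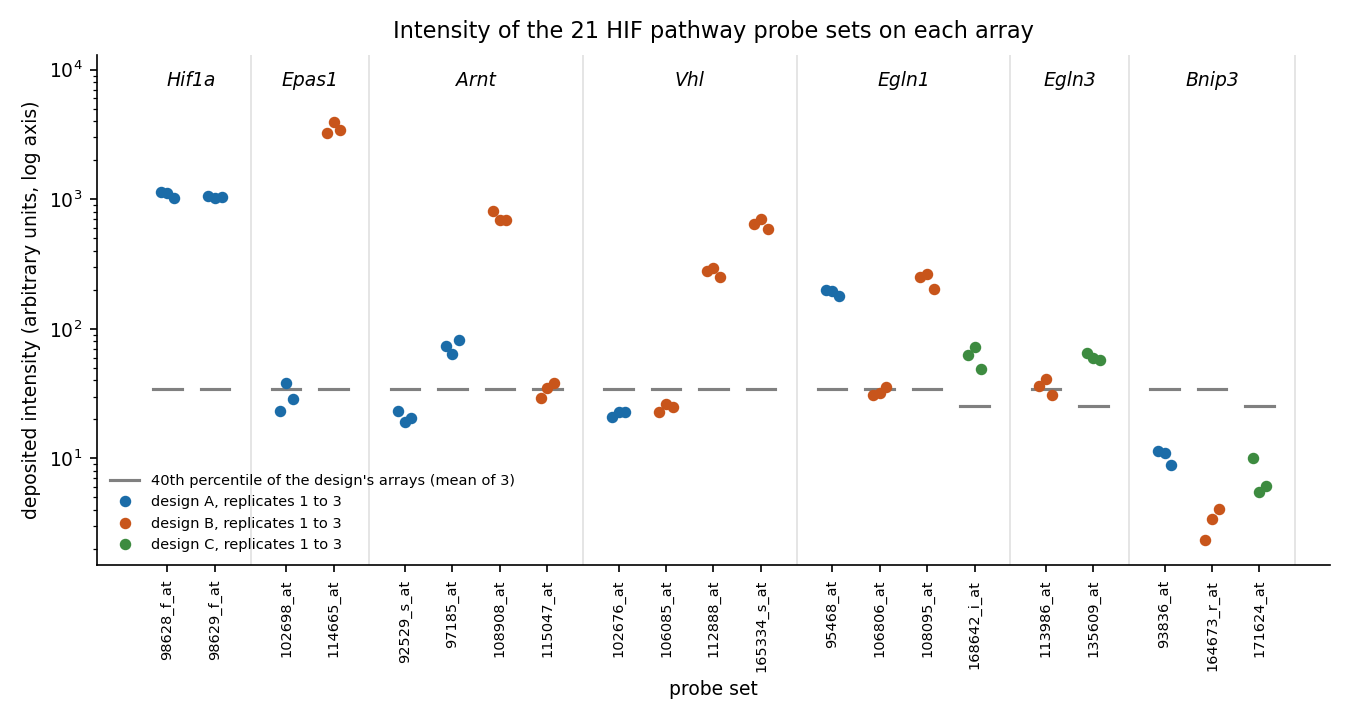
Deposited intensity (arbitrary units, log axis) of each of the 21 HIF pathway probe sets on its 3 replicate arrays, with points coloured by design and a grey bar at the 40th percentile of the design's arrays. Replicates of many probe sets lie close together, and the widest log2 spread is that of Bnip3 171624_at (SD 0.48). Epas1, Arnt, Vhl and Egln1 each have probe sets far above the bar and others near or below it, and those of Bnip3 all lie below it.

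Hif1a, the alpha subunit present in most cell types, was read by 2 probe sets on design A. Probe set 98628_f_at read 1128, 1115 and 1016 in the 3 replicates, and 98629_f_at read 1062, 1024 and 1032. All 6 values were at least 1016, against a floor of at most 34.9 on that design, and they did not overlap with any other member on that design. Positions were 98.4 ± 0.065 and 98.3 ± 0.15. The 2 probe sets differed by 0.14 percentile points, a smaller span than that of all but 0.21% of the named genes with 2 to 4 probe sets. Every probe set stood at a mean position of 98 or more for Hif1a alone among the 7 genes, beside 0.14% of named genes with 2 to 4 probe sets. That cut was set with earlier results known, so the share is descriptive. The ending _f_at marks probes that also match related sequences, and neither probe set is a plain one, so the Hif1a values have no check by a probe set without that mark.

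Epas1, the alpha subunit known for endothelial expression, gave the highest signal of the 7 genes on one design and a low one on another. On design B, probe set 114665_at read 3252, 3978 and 3397 (position 99.97 ± 0.020). On design A, probe set 102698_at read 23.4, 38.2 and 28.5 (position 34.1 ± 9.3) and exceeded the floor on 1 of 3 arrays. Both are plain probe sets annotated to this gene alone, and 65.9 percentile points lie between them, a span wider than in 83.8% of named genes with 2 to 4 probe sets. On both designs replicate 2 was the highest and replicate 1 the lowest. The design A probe set also varied more between replicates than 97.5% of the probe sets of like signal on its design (SD 0.36 on the log2 scale), and its position rests on values close to the floor. The design B probe set had an SD of 0.15 and lay in the middle of its like-signal probe sets.

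Arnt, the shared beta subunit, was read by 4 probe sets that spread over most of the range. On design B, 108908_at read 810.4, 692 and 694.1 (position 98.95 ± 0.085), while 115047_at read 29.4, 35.0 and 38.3 (40.04 ± 4.8), crossing the floor on 2 of 3 arrays. On design A, 97185_at read 73.9, 64.3 and 82.0 (67.3 ± 3.9) and 92529_s_at read 23.1, 19.0 and 20.4 (21.3 ± 3.9). The first of these exceeded the floor on every array and the other on none, and the value ranges of the 4 probe sets did not overlap. The span of 77.6 percentile points was the widest of the 7 genes and exceeded that of 92.2% of named genes with 2 to 4 probe sets.

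Vhl, which encodes the subunit that recognises hydroxylated alpha subunits, split into a high and a low pair of probe sets. On design B, 165334_s_at read 645.1, 698.7 and 588.9 (position 98.7 ± 0.38) and 112888_at read 278.1, 296 and 250.4 (94.1 ± 0.94). The third probe set of that design, 106085_at, read 22.6, 26.1 and 24.9 (27.2 ± 2.6), and 102676_at on design A read 20.97, 22.8 and 22.7 (23.4 ± 1.04). The high pair exceeded the floor on every array and the low pair on none. The ending _s_at marks probes shared with other sequences, so the place of Vhl above percentile 98 rests on a set that is not plain, and its highest plain set is 112888_at. With plain sets alone, the mean position of Vhl on design B was 60.7, against 73.3 with all 3. Replicate 2 was the highest on all 4 Vhl probe sets. The SD over replicates, between 0.068 and 0.12 on the log2 scale, was below the median of like-signal probe sets for each of them.

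Egln1, which encodes the main HIF prolyl hydroxylase PHD2, exceeded the floor with 3 of 4 probe sets and on all 3 designs. On design A, 95468_at read 199.1, 195.8 and 179.6 (position 86.7 ± 0.23). On design B, 108095_at read 251.1, 263.7 and 204.6 (92.5 ± 1.8) and 106806_at read 30.7, 32.1 and 35.4 (38.3 ± 1.9), and 106806_at crossed the floor only on replicate 3. On design C, 168642_i_at read 63.0, 72.7 and 48.7 (72.4 ± 6.5), more spread than 93.4% of like-signal probe sets. All 3 designs thus gave Egln1 a signal above the floor, at different heights. The only set on design C is not plain, and it stayed below the threshold from genes of unrelated tissues on all 3 replicates.

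Egln3 encodes PHD3, a hydroxylase whose gene is itself switched on by HIF. On design C, 135609_at read 65.3, 59.0 and 57.5 (position 72.4 ± 1.7), and on design B, 113986_at read 35.9, 41.0 and 30.6 (41.6 ± 6.8). The design C values all lay above that design's floor, and the design B values crossed the floor on 2 of 3 arrays. The design C set stayed below the threshold from genes of unrelated tissues on all 3 replicates, and the design B set exceeded it on 2. Neither probe set reached the 75th percentile of its array on any replicate. Egln3 was therefore the only one of the 6 genes over the floor whose probe sets all stayed below that level.

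Bnip3, a HIF target that encodes a mitochondrial outer membrane protein involved in mitophagy and cell death, was low on every array. Probe set 93836_at read 11.4, 11.0 and 8.96 on design A (position 6.56 ± 1.7), 164673_r_at read 2.34, 3.38 and 4.06 on design B (0.32 ± 0.21), and 171624_at read 10.2, 5.47 and 6.12 on design C (6.55 ± 4.7). No value exceeded the floor of its array, and 2 of the 21 member probe sets, both of Bnip3, stayed under percentile 10 on all 3 replicates, beside 7.86% of all probe sets. All probe sets had a mean position under 10 in Bnip3 alone among the 7 genes, beside 0.968% of named genes with 2 to 4 probe sets. The cut at 10 was also set with earlier results known, and the share is descriptive. The ending _r_at marks a set that does not meet all probe selection rules, but the other two are plain. A low signal does not show that the transcript was absent.

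**Figure D2:**
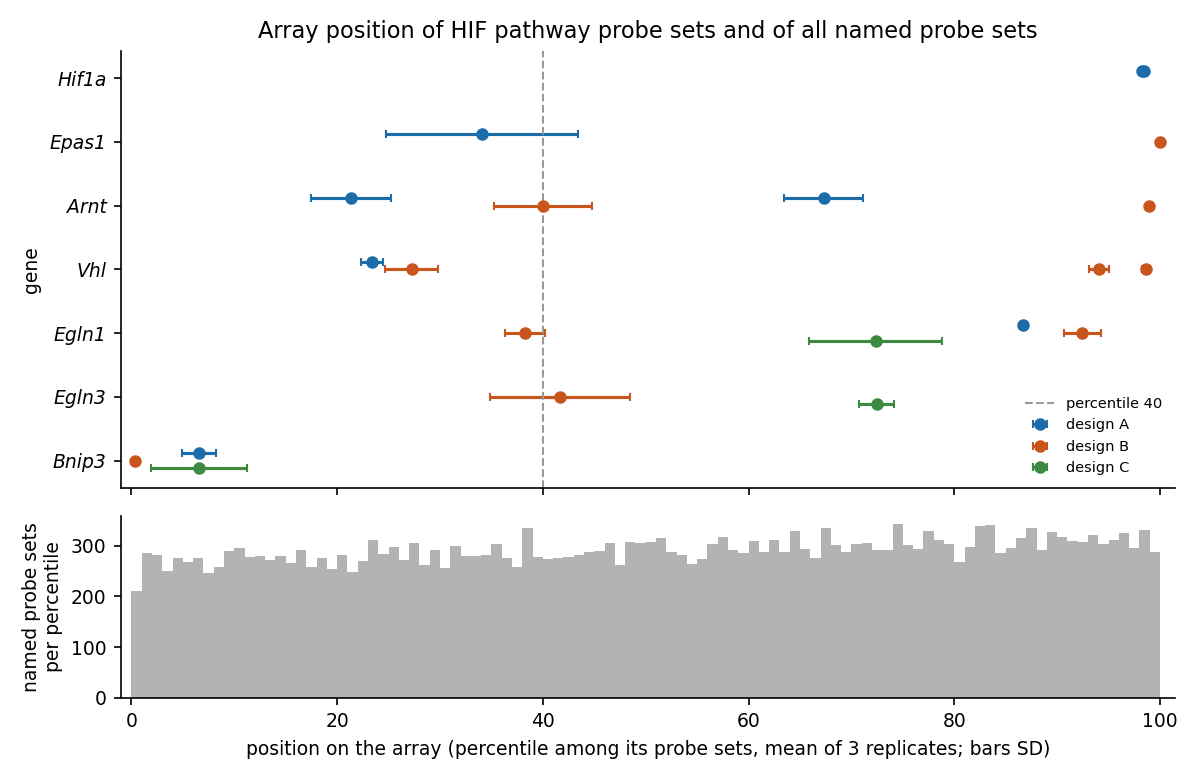
Upper panel: position of each HIF pathway probe set on its array (percentile, mean of 3 replicates, bars SD), by gene and coloured by design, with percentile 40 dashed. Lower panel: number of named probe sets in each percentile. The probe sets of Hif1a sit at 98.4 and 98.3 and those of Bnip3 at 6.56, 6.55 and 0.32, while Arnt extends between 21.3 and 98.95.

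By strongest probe set, the order of positions was Epas1, Arnt, Vhl, Hif1a, Egln1, Egln3 and Bnip3. Epas1, Arnt, Vhl and Egln1 were ranked on design B, Hif1a and Bnip3 on design A, and Egln3 on design C. Designs hold different probe sets, and the order by intensity was another. Hif1a 98628_f_at read 1016 to 1128, above Arnt 108908_at (692 to 810) and Vhl 165334_s_at (589 to 699). The position ranges of Arnt and Vhl over replicates overlapped, as did those of Vhl and Hif1a. These neighbours therefore did not differ in position beyond their spread. The other neighbours did not overlap. The median of the strongest positions was 98.4 for the 7 genes, beside 75.4 for named genes with 2 to 4 probe sets and 65.9 for all named genes. The mean over all probe sets of a gene gave a median of 60.8 for the 7 genes, beside 52.1 for all named genes. Against all named genes, this distance was smaller than that between the strongest probe sets.

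Disagreement between probe sets of a gene was common on these arrays. The floor split the probe sets of 5 of the 7 genes (Epas1, Arnt, Vhl, Egln1 and Egln3), beside 54.8% of named genes with 2 to 4 probe sets. A span of 50 or more percentile points was found in 4 of 7, namely Epas1, Arnt, Vhl and Egln1, beside 31.8% of those genes. The median span was 54.2 points for the 7 genes and 35.5 points for the 7130. Arnt, Vhl and Egln1 had 4 probe sets each, and the 7130 genes were not matched to the members by number of probe sets. Which probe set of a split gene follows its transcript cannot be read from these values.

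**Figure D3:**
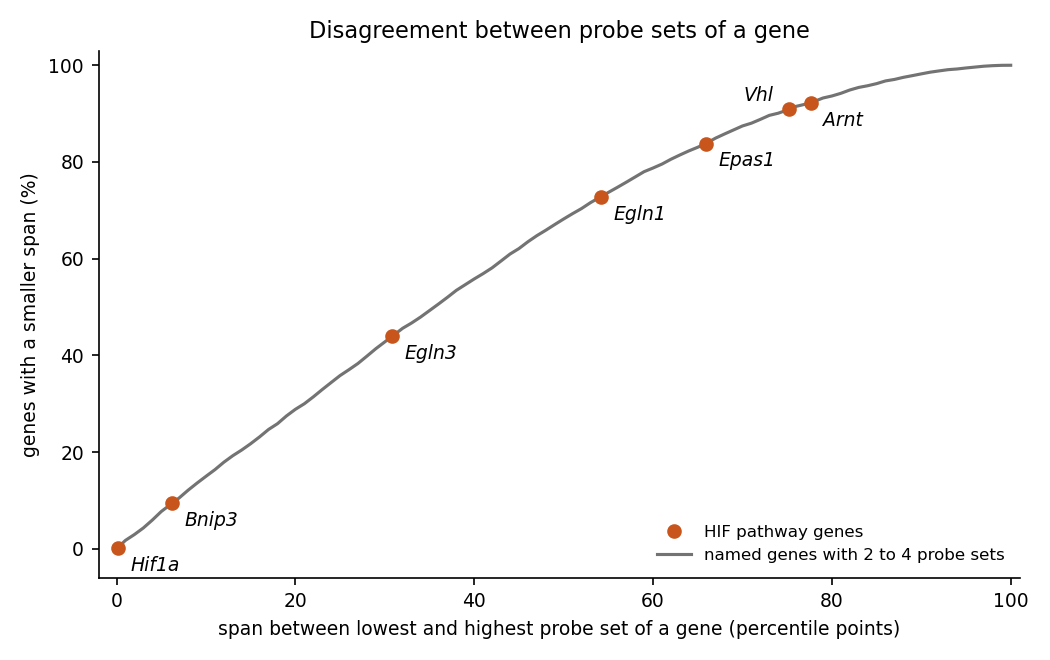
Span between the lowest and the highest probe set of a gene (percentile points) against the percent of named genes with 2 to 4 probe sets that have a smaller span. The line is the 7130 named genes and the points are the 7 HIF pathway genes, which lie on it by construction, with Hif1a and Bnip3 at the low end (0.14 and 6.23 points) and Vhl and Arnt at the high end (75.3 and 77.6 points).

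Replicate spread of the HIF genes was like that of other probe sets. The SD of log2 intensity over 3 replicates had a median of 0.14 over the 21 probe sets and 0.13 over all named probe sets. It ranged from 0.027 for Hif1a 98629_f_at to 0.48 for Bnip3 171624_at. An SD above the 90th percentile of probe sets of like signal was seen in 2 of 21, the design A set of Epas1 and the design C set of Egln1, beside 10.1% of named probe sets. Replicate 1 was the highest in 8 of the 21 probe sets, replicate 2 in 9 and replicate 3 in 4.

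Bnip3, Egln1 and Egln3 are described as genes that HIF switches on, and the bases before their starts are shown because HIF binds DNA at a short core. The core was searched as ACGTG and GCGTG on both strands in the 250 bases before the RefSeq start (GRCm38.p6), and matches are in capitals. Windows were at hand for 6 of the 7 members, all but Epas1.
Bnip3, chr7:138909507-138909756, minus strand: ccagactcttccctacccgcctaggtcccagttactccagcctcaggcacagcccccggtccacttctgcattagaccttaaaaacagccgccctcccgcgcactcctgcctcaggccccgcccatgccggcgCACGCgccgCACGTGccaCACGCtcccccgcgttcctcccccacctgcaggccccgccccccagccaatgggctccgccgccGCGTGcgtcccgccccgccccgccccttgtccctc
Egln1, chr8:124949255-124949504, minus strand: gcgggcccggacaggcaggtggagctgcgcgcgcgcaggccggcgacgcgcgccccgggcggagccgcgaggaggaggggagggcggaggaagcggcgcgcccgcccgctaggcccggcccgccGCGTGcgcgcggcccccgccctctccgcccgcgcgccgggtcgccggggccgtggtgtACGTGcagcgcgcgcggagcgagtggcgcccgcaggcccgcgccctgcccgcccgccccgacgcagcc
Egln3, chr12:54203875-54204124, minus strand: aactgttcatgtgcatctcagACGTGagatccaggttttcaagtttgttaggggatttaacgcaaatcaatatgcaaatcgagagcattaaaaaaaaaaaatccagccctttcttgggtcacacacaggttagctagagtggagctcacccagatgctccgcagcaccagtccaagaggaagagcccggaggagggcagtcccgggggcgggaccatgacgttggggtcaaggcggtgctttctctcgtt
Bnip3 held 5 matches, of which the CACGT at 108 and the ACGTG at 107 bases before the start overlap as the 2 strands of a palindrome. Egln1 held 2 matches, at 126 and 68 bases before the start, in a window of 86.0% GC. Egln3 held 1 match, at 229 bases. A core was also found in Hif1a (3 matches, 2 of them such an overlapping pair) and Arnt (1 match), and the letters were not in the Vhl window. Of all 32851 windows of this length, 38.6% held at least 1 of the 2 cores, 16.6% ACGTG and 28.2% GCGTG. A match is no evidence of binding. The number of matches was not compared with signal.

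The other genes of the machinery were mostly above the floor. Of 18 listed genes for further HIF subunits, hydroxylases, ligase subunits, coactivators and chaperones, 15 were measured, and 14 of them exceeded the floor with at least 1 probe set, beside 72.4% of all named genes and 84.7% of those with 2 to 4 probe sets. At the 75th percentile, 8 did (53.3%), beside 36.0% and 47.5%. Their median strongest position was 81.1, beside 65.9 for all named genes and 75.4 for those with 2 to 4 probe sets. The 15 genes had 33 probe sets in all, but some, such as Egln2 and Cops5, had 1 and Crebbp had 5. Neither comparison is therefore matched for the number of probe sets. Egln2, the third HIF prolyl hydroxylase, read 629.4, 746.9 and 630.2 (position 96.9 ± 0.29). The asparagine hydroxylase gene Hif1an read 54.7, 60.6 and 57.6 on design C (70.9 ± 2.04) and 37.1, 36.8 and 36.8 on design B (43.04 ± 1.003). Both hydroxylases stayed above the floor on every replicate. Cul2, the scaffold of the Vhl ligase, stood at 77.4 ± 1.05 on design A and at 57.8 and 54.0 on design C. Hif3a, the third alpha subunit gene, read 37.5, 38.7 and 46.3, just above the floor (47.03 ± 4.1). The highest positions were those of the chaperone gene Hsp90aa1 (97.5 ± 0.37 on 1 probe set, 11.8 and 4.20 on 2 others), Egln2 and Cops5, a signalosome subunit (94.2 ± 0.99). The lowest was the coactivator gene Ep300, at 25.7 ± 1.2 and 8.60 ± 3.6.

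Genes described as HIF targets lay across the whole range of the arrays. Of 56 listed, 50 were measured and 38 exceeded the floor, which is 76.0%, beside 72.4% of all named genes and 84.7% of those with 2 to 4 probe sets. At the 75th percentile 22 did (44.0%), beside 36.0% and 47.5%. Their median strongest position was 68.3, beside 65.9 and 75.4, and they had 99 probe sets in all. By count over the floor and by median, they stood slightly above all named genes and below those with 2 to 4 probe sets. Many of them, such as Slc2a1, Ldha and Epo, had only 1 probe set. Neither background is matched to the list for the number of probe sets. The lactate dehydrogenase gene Ldha read 1842, 1696 and 1612 (99.3 ± 0.086). The glycolytic kinase gene Pgk1 read 943, 939 and 927.7 on design A (98.02 ± 0.15). On design B, Pgk1 read 15.9, 14.9 and 15.3 (13.7 ± 0.88) with a set that ends in _f_at. Insig2, a sterol regulator, stood at 98.2 ± 0.26 and 91.3 ± 1.5. These were the highest 3 of the list. The glucose transporter gene Slc2a1 read 244, 297.9 and 202.6 (89.4 ± 1.6), and the stress gene Ddit4, an inhibitor of mTOR signalling, read 631, 818.1 and 733.4 (97.1 ± 0.47). Ankrd37 read 290.4, 221.6 and 234.4 (92.9 ± 1.2), and Pdk1, which restrains entry of pyruvate into mitochondria, read 135, 123.4 and 122.3 (79.7 ± 1.06). All of these exceeded the floor on every replicate of at least 1 probe set. Adm, the vasoactive peptide adrenomedullin, read 47.4, 51.7 and 46.7 on design A (53.8 ± 1.9), and the carbonic anhydrase gene Car9 read 60.0, 49.1 and 54.5 (69.1 ± 2.8). The 3 designs disagreed on the growth factor gene Vegfa, with 67.6 ± 3.6 on design C, 16.4 ± 1.8 on A and 4.64 ± 2.8 on B. The Vegfa set on design B ends in _r_at. Those of Adm, Car9 and Vegfa stayed below the threshold from genes of unrelated tissues on every replicate. The erythropoietin gene Epo was the lowest, with 11.6, 9.97 and 15.1 (8.77 ± 3.2). Bnip3l, the paralogue of Bnip3, is not reported since its probe set also names a pseudogene.

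**Figure D4:**
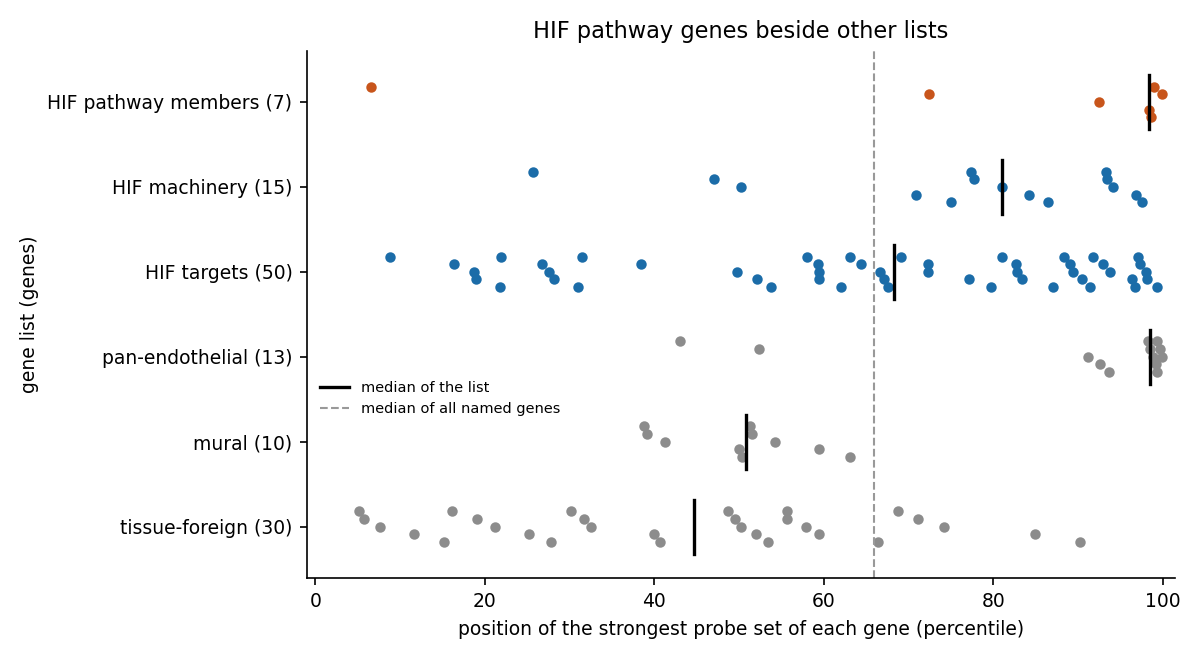
Position of the strongest probe set of each gene (percentile, mean of 3 replicates) for the 7 HIF pathway genes, the other HIF machinery genes, HIF target genes and, for scale, pan-endothelial, mural and tissue-foreign genes, that is genes specific to unrelated tissues. Black bars are list medians (98.4, 81.1 and 68.3 for the HIF lists, in that order) and the dashed line is the median of all named genes, 65.9.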

How the data were processed

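The authors deposited a linear intensity for every probe set of each array, in 1 table per design, from RNA that was amplified and labelled with biotin, per the labels' protocols. How probes were summarised and arrays scaled is, in the sources used here, not given. No detection calls were used. Gene names come from the platform annotation, and all 7 member symbols were unchanged in RefSeq for GRCm38.p6. Positions, floors and SDs were computed with Python 3.11.15, pandas 2.3.3 and numpy 2.4.6. The floor was the 40th percentile of each array, which fixes the share above it, so counts are read only beside that share. For log2 values, an intensity of 0 took the smallest positive value of its array. Probe sets of like signal are those of the design in the same 1 of 10 equal bins of mean log2 intensity. All arrays are of 1 condition, so no test, fold change or p-value is given, and no genes of like pattern were sought. The number of arrays limits the precision. The steps were tested on simulated data. Genes named from the lists were the 3 highest and the lowest by strongest probe set, plus preset genes. The members, lists, rules and cuts were chosen with earlier results of these data known. Alternatives tried were other floors, the strongest or plain probe sets, percentiles over named probe sets, 50 added before logarithms, quantile normalization, and each replicate left out.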

Additional observations from a re-analysis of the deposited data

How the results depend on the processing

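No paired analysis was possible because all arrays belong to 1 condition and the designs hold different probe sets, so no result comes from a comparison of groups. The 7 genes had 6 members over the floor at the 40th and the 60th percentile, with any replicate left out, and 5 at the 75th percentile (without Egln3), with the threshold from genes of unrelated tissues (without Egln3) and with plain probe sets alone (without Hif1a). At the 75th percentile, 8 machinery genes were over the floor, against 14 at the 40th, and 22 target genes, against 38. The median position of the genes on each design, 65.4, was 63.7 with percentiles over named probe sets, 72.4 with the strongest probe set and 63.0 with plain probe sets, and between 64.99 and 65.7 with a replicate left out. The cause was not tested. Hif1a, Egln1 on design C and Bnip3 on design B have no plain probe set. The median replicate SD, 0.14, was 0.078 with 50 added before logarithms and 0.17 after quantile normalization.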

Other observations

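Further HIF target genes outside the naming rule, chosen after their values were seen, add to the spread of that list. Edn1, the vasoconstrictor endothelin 1, read 649.2, 844 and 789.7 (position 97.3 ± 0.50), the glycolytic aldolase gene Aldoa 610.9, 768.2 and 581.3 (96.8 ± 0.44) and Angptl4, a secreted inhibitor of lipoprotein lipase, 230.9, 303.6 and 278.8 (90.4 ± 1.6). These lay above percentile 90 with their strongest probe set on design A. Angptl4 also had a probe set at 5.35, and Edn1 one at 38.6. The hexokinase gene Hk2, by contrast, read 9.98, 25.7 and 16.1 with its strongest probe set (16.3 ± 11.5), and the glycogen branching enzyme gene Gbe1 31.4, 11.1 and 15.1 (18.8 ± 16.0). Both stayed under the floor on every replicate, with a wide spread between replicates.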
